A study of Homo sapiens with 6 samples.

Results

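RNA was measured by sequencing in IOMM-Lee cells, an established line of malignant grade 3 meningioma, to ask how its transcripts differ in low oxygen. The tested libraries came from cells kept at 0.2% oxygen for 48 h in a hypoxia workstation (3 libraries), and the comparison libraries from normoxic cells labelled with the same 48 h (3 libraries). All cells are 1 unmodified line grown in serum-containing medium, with no transgene or drug, so the groups differ by oxygen alone as far as the labels say. Of the 61859 genes in the count table, 10 were followed here, taken by gene symbol as the NRF2 antioxidant and glutathione genes: NFE2L2, KEAP1, GCLC, GCLM, NQO1, HMOX1, TXNRD1, SRXN1, GPX4 and AIFM2. Each symbol matched 1 Ensembl identifier, and 9 of the 10 had enough counts to be tested.

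NRF2, the protein of NFE2L2, is a transcription factor that pairs with small MAF proteins at antioxidant response elements in DNA. In unstressed cells KEAP1 hands NRF2 to a CUL3 ubiquitin ligase, and the protein is destroyed. Oxidants and electrophiles block KEAP1, and NRF2 then drives genes for glutathione synthesis (GCLC, GCLM), quinone reduction (NQO1), the thioredoxin system (TXNRD1, SRXN1) and heme breakdown (HMOX1), while BACH1 represses many of the same elements. GPX4, a glutathione-dependent selenoenzyme, and AIFM2 (also called FSP1), a ubiquinone reductase, each protect membranes from lipid peroxidation and so from ferroptosis. NRF2 is controlled largely as a protein, and no protein was measured here.

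The promoters of these genes were searched for the antioxidant response element core TGACNNNGC on both strands. RefSeq windows on GRCh38.p14, from 250 bases before to 50 bases after the start, matched 9 of the 10 genes by symbol, and HMOX1 had no entry. The core was in 3 of the 9 windows, against 13.3% of 35116 promoters of the same length. Sequence outside the windows was not searched, so a window without the core does not mean a gene without it. Each window sits at an annotated start, and whether these cells use that start was not measured. Those 3 promoters are shown because their genes went different ways in hypoxia, AIFM2 higher and TXNRD1 and GCLM lower. Each line runs 5′ to 3′ on the gene's own strand from 150 bases before the start, with the matches to the antioxidant core and to the hypoxia response element core (ACGTG or GCGTG) in capitals.
AIFM2: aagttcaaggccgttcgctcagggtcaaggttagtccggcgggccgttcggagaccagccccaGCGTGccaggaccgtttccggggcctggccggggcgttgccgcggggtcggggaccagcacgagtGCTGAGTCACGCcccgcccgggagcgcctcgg
TXNRD1: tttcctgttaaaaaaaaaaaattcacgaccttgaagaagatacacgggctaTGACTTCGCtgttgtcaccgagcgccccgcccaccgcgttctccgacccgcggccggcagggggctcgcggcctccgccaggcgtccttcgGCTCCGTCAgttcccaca
GCLM: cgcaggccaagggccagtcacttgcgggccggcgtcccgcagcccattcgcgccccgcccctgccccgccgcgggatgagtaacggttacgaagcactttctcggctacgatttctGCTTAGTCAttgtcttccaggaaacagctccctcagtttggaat
The AIFM2 line covers chr10:70132816-70132975 on the minus strand, the TXNRD1 line chr12:104215629-104215788 on the plus strand and the GCLM line chr1:93909421-93909580 on the minus strand. Positions are counted with the start base as 0. AIFM2 carried the antioxidant core at -22 to -14, read on the opposite strand as TGACTCAGC. That match holds an AP-1 site (TGANTCA, in 7.71% of promoters) and shares 2 bases with a hypoxia core at -15 to -11, and a further hypoxia core lay at -87 to -83. TXNRD1 carried the antioxidant core at -99 to -91 and again at -8 to 0, and GCLM carried it at -34 to -26. GCLM also carried hypoxia cores at -202 to -198 and at -159 to -155, in its window but upstream of the printed line. TXNRD1 had no hypoxia core in its window. The hypoxia core was in 7 of the 9 windows and in 48.4% of all promoters. A match is a description of letters and not evidence of binding.

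Library totals were 10619864 to 18447885 counts in hypoxia and 14685317 to 19554178 in normoxia, and 3 counts equalled 0.133 to 0.315 CPM, the counts scaled to a common library size. CPM here use TMM, a factor per library that centres most genes, so they are levels relative to the bulk of each library. As a check of the label, 8 of 8 textbook hypoxia genes were higher in hypoxia; CA9, a carbonic anhydrase, stood at 926 ± 31.9 CPM in hypoxia and 70.5 ± 14.8 CPM in normoxia (SD, n = 3 each). Among meningioma markers VIM, DSP, MUC1 and CRABP2 were expressed and higher in hypoxia, FOXC1 was at 3.48 ± 0.957 CPM in hypoxia and 11.9 ± 0.769 CPM in normoxia, and TBX18 at 41.5 ± 5.25 CPM in hypoxia and 51.1 ± 4.30 CPM in normoxia (SD, n = 3 each). PTGDS, PGR, ALPL and CDH1 were under 3 counts in every library, SLC47A1 was at most 0.18 CPM in hypoxia and 0.221 CPM in normoxia, and SSTR2 was at 0.299 ± 0.181 CPM in hypoxia and at 0.841 ± 0.272 CPM in normoxia (SD, n = 3). Summed leukocyte markers were at most 2.73 CPM in hypoxia and 2.79 CPM in normoxia, endothelial markers 4.84 to 7.92 CPM in hypoxia and 15.9 to 19.2 CPM in normoxia, and glial and neural markers 15.1 to 17.9 CPM in hypoxia and 19.0 to 24.0 CPM in normoxia. Keratinocyte markers summed to 24.5 to 55.4 CPM in hypoxia and 12.95 to 18.2 CPM in normoxia, nearly all of it KRT10, with 3 of the 6 at 0 throughout. Mitochondrial transcripts took 2.05 to 3.05% of counts in hypoxia and 6.42 to 7.29% in normoxia, and hypoxia replicate 3 stood apart from the other hypoxia libraries on the second principal component. The part of these differences in the results below was not tested. In bulk RNA, fewer cells and less RNA per cell cannot be told apart.

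The 10 genes did not move as a group. AIFM2 (3.62-fold) and HMOX1 (2.24-fold) were higher in hypoxia, and GPX4 was 1.33-fold higher at the edge of the threshold. NQO1 (2.09-fold), TXNRD1 (1.54-fold) and GCLM (1.29-fold) were lower. NFE2L2, KEAP1 and GCLC did not pass the threshold, and SRXN1 was too scarce to test. Genes were called by edgeR's quasi-likelihood test at a Benjamini-Hochberg adjusted p under 0.05 over all 16411 tested genes. Of the 9 tested, 6 were called (66.7%), 3 in each direction, while 62.2% of all tested genes were called, 31.2% of them as higher and 31.0% as lower. The share among these genes was therefore near the background. Hypoxia and normoxia libraries did not overlap for 6 of the 9, against 67.9% of all tested genes. The median log2 change of the 9 was 0.03 and the median size of the change 0.41, against 0.01 and 0.71 over all tested genes. Tested against a change of 1.5-fold instead of 0, AIFM2, HMOX1 and NQO1 were called, 2 higher and 1 lower, where 35.8% of all tested genes were called, 17.2% as higher and 18.6% as lower. Under scaling by library totals alone, 2 of the 9 were called higher and 4 lower, against 20.9% and 42.1% of all tested genes.

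**Figure D1:**
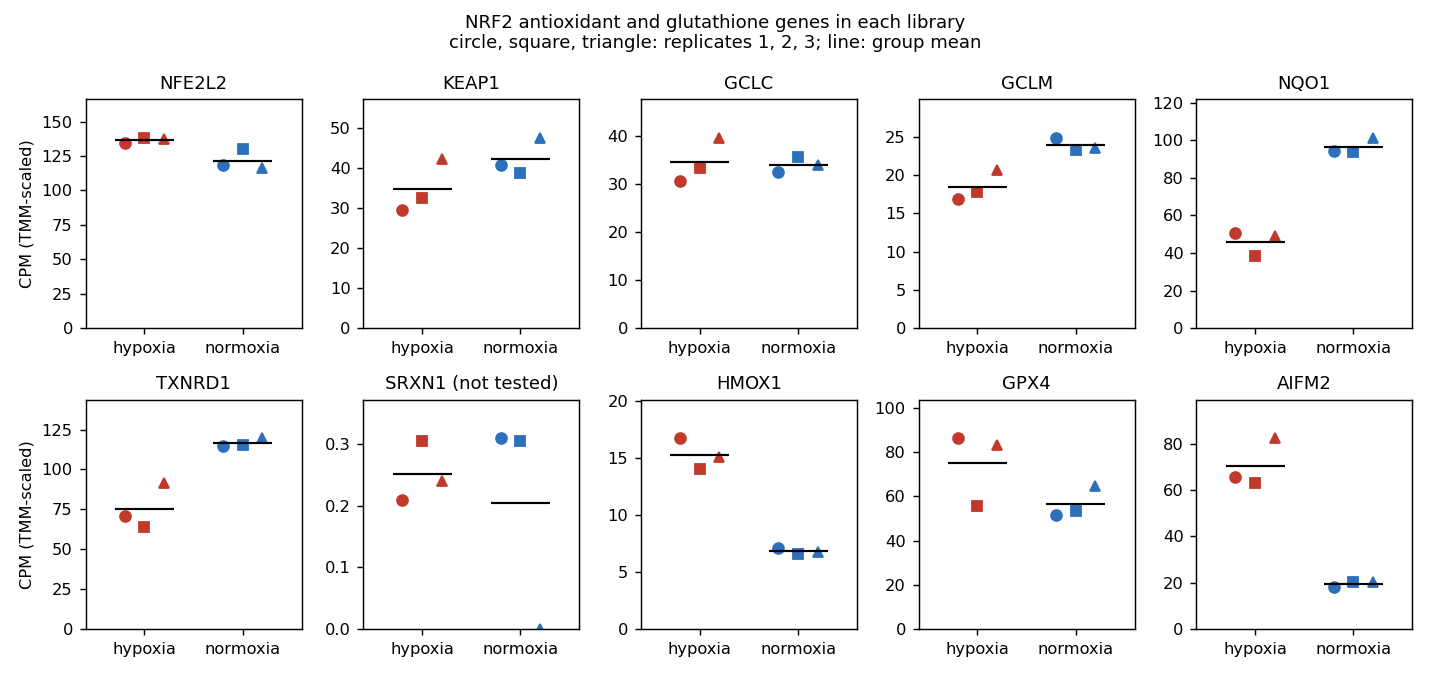
CPM of each of the 10 genes in the 3 hypoxia libraries (left in each panel) and the 3 normoxia libraries (right), 1 point per library and a line at the group mean, with a linear axis from 0 for each gene. AIFM2 and HMOX1 have every hypoxia point above every normoxia point, NQO1, TXNRD1 and GCLM have every hypoxia point below, and KEAP1, GCLC, GPX4 and the scarce SRXN1 overlap; NFE2L2 has a narrow gap, with hypoxia above.

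**Figure D2:**
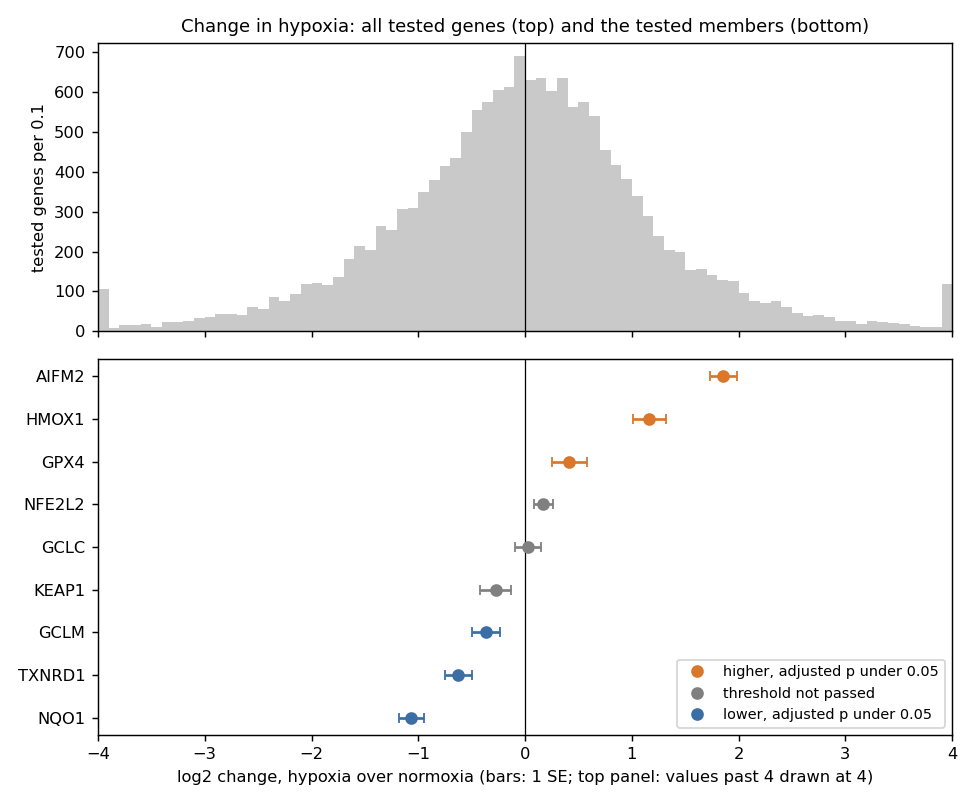
The upper panel is a histogram of the log2 change, hypoxia over normoxia, of 16411 tested genes, and the lower panel gives the 9 tested members with bars of 1 SE. The members spread on both sides of 0, from 1.86 for AIFM2 to -1.07 for NQO1. Of all tested genes, 6.27% rose more than AIFM2 and 17.3% fell more than NQO1.

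The factor and its inhibitor come first. NFE2L2 (ENSG00000116044, chr2:177227595-177392697 on GRCh38, minus strand) was at 135, 138 and 138 CPM in hypoxia and at 118, 130 and 116 CPM in normoxia. Every hypoxia library lay above every normoxia library, yet the gap was small: the log2 change was 0.17 ± 0.09 (SE; edgeR adjusted p = 0.115), which does not pass the threshold. With scaling by library totals alone its sign turned, to -0.14 (edgeR adjusted p = 0.255). A same-strand transcript annotated inside the gene, AC019080.1, shares 17.6% of the exon bases of NFE2L2. Reads there may have been split between them or left out of both. AC019080.1 was at 9.88, 10.7 and 6.18 CPM in hypoxia and at 21.7, 25.4 and 21.8 CPM in normoxia. Summed over both, the hypoxia libraries were at 144.5, 149.1 and 143.7 CPM and the normoxia libraries at 140.2, 155.5 and 137.9 CPM, and the groups overlapped. That sum was chosen after the overlap had been seen. It cannot restore reads left out of both genes, and it adds the counts of AC019080.1 itself, which were lower in hypoxia. The sum therefore does not decide how NFE2L2 alone changed.

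KEAP1 (ENSG00000079999, chr19:10486120-10503741, minus strand), the sensor that marks NRF2 for destruction, was at 29.5, 32.6 and 42.2 CPM in hypoxia and at 40.7, 38.8 and 47.6 CPM in normoxia. Hypoxia replicate 3 lay among the normoxia libraries and the other 2 hypoxia libraries below them. The log2 change of -0.28 ± 0.15 did not pass the threshold (SE; edgeR adjusted p = 0.123). Without hypoxia replicate 3 it was -0.47 and was called (edgeR adjusted p = 0.00345), and it was called as well by upper-quartile scaling, by library totals and with no filter on low counts. Within a library, the ratio of NFE2L2 to KEAP1 counts does not depend on scaling between libraries. It was 4.55, 4.24 and 3.26 in hypoxia and 2.91, 3.35 and 2.44 in normoxia, so hypoxia replicate 3 fell just under the highest normoxia library. The means were 4.02 ± 0.675 in hypoxia and 2.90 ± 0.458 in normoxia (SD, n = 3 each; two-sided exact permutation p = 0.2, where 0.1 is the smallest that 3 against 3 allows).

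Glutathione is made in a pair of steps, and the first, slower step is carried out by glutamate-cysteine ligase, a dimer of the catalytic subunit GCLC and the modifier GCLM. GCLC (ENSG00000001084, chr6:53497341-53616970, minus strand) was at 30.7, 33.3 and 39.7 CPM in hypoxia and at 32.5, 35.6 and 34.0 CPM in normoxia. The groups overlapped, with hypoxia replicate 2 inside the normoxia range, replicate 1 below it and replicate 3 above it. The log2 change was 0.03 ± 0.12 (SE; edgeR adjusted p = 0.859), and its sign turned under 6 of 15 alternatives with a call in none of them. GCLM (ENSG00000023909, chr1:93885205-93909456, minus strand) was at 16.9, 17.8 and 20.7 CPM in hypoxia and at 24.9, 23.3 and 23.5 CPM in normoxia. Each hypoxia library was below each normoxia library. GCLM averaged 18.5 ± 1.98 CPM in hypoxia and 23.9 ± 0.861 CPM in normoxia (SD, n = 3 each), a shift of -0.37 ± 0.13 in log2 (SE; edgeR adjusted p = 0.0284). That call was lost when hypoxia replicate 1 or 2 or any of the normoxia replicates was left out (edgeR adjusted p = 0.0517 to 0.0825), with the sign kept.

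Set against its partner, GCLM was lower in each hypoxia library. The ratio of GCLM to GCLC counts was 0.552, 0.534 and 0.522 in hypoxia and 0.766, 0.657 and 0.691 in normoxia. The hypoxia ratios lay close together and under all 3 normoxia ratios, with means of 0.536 ± 0.015 in hypoxia and 0.705 ± 0.056 in normoxia (SD, n = 3 each). The exact permutation test gave its smallest possible value (two-sided p = 0.1), which cannot pass 0.05 at this size.

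NQO1 (ENSG00000181019, chr16:69706996-69726951, minus strand), which reduces quinones by 2 electrons and is a widely used readout of NRF2, fell the most of the 10. It was at 50.5, 38.5 and 49.0 CPM in hypoxia and at 94.2, 93.7 and 101 CPM in normoxia. All 3 hypoxia libraries stood well below all 3 normoxia libraries. The means were 46.0 ± 6.52 CPM in hypoxia and 96.5 ± 4.32 CPM in normoxia (SD, n = 3 each), a shift of -1.07 ± 0.12 in log2 (SE; edgeR adjusted p = 1.99e-05). Of all tested genes, 17.3% fell more. An antisense gene over part of its exons had 0 counts in every library. The strand setting is not given, so reads on the shared bases may have been left out of both genes.

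TXNRD1 (ENSG00000198431, chr12:104215779-104350305, plus strand), the cytosolic selenoenzyme that recycles thioredoxin with NADPH, was at 71.0, 63.6 and 91.3 CPM in hypoxia and at 115, 115 and 119 CPM in normoxia. The normoxia libraries were nearly level, and the hypoxia libraries were all lower but more spread, with replicate 3 the highest. The log2 change was -0.62 ± 0.13 (SE; edgeR adjusted p = 0.00149). It was not called in the test against 1.5-fold. SRXN1 (ENSG00000271303, chr20:646615-653370, minus strand), the sulfiredoxin that repairs overoxidised peroxiredoxins, had 2, 3 and 4 counts in hypoxia and 7, 5 and 0 counts in normoxia, close to the limit that a count of 0 allows. The protein-coding gene AL121758.1 on the same strand shares 85.0% of the SRXN1 exon bases. Reads there could be left out of both genes or split, so the level of SRXN1 is uncertain.

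HMOX1 (ENSG00000100292, chr22:35380361-35394214, plus strand), the inducible heme oxygenase, went the other way from NQO1. It was at 16.7, 14.0 and 15.1 CPM in hypoxia and at 7.12, 6.54 and 6.75 CPM in normoxia. Both groups were tight and well apart, with means of 15.3 ± 1.35 CPM in hypoxia and 6.80 ± 0.297 CPM in normoxia (SD, n = 3 each). The log2 change was 1.16 ± 0.15 (SE; edgeR adjusted p = 7.71e-05), on 549 counts in hypoxia and 384 in normoxia. HMOX1 is also known as a target of hypoxia-inducible factor and of BACH1.

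The pair that guards membranes differed in size and certainty. AIFM2 (ENSG00000042286, chr10:70098223-70132934, minus strand) was at 65.5, 62.8 and 82.2 CPM in hypoxia and at 18.1, 20.0 and 20.1 CPM in normoxia. The lowest hypoxia library was above 3 times the highest normoxia library. The means were 70.2 ± 10.5 CPM in hypoxia and 19.4 ± 1.11 CPM in normoxia (SD, n = 3 each), a shift of 1.86 ± 0.13 in log2 (SE; edgeR adjusted p = 7.88e-07). Of all tested genes, 6.27% rose more.

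GPX4 (ENSG00000167468, chr19:1103926-1106791, plus strand), which reduces lipid hydroperoxides with glutathione, was at 86.2, 55.8 and 83.3 CPM in hypoxia and at 51.5, 53.1 and 64.7 CPM in normoxia. Hypoxia replicate 2 lay inside the normoxia range and the other hypoxia libraries above it. The means were 75.1 ± 16.8 CPM in hypoxia and 56.5 ± 7.19 CPM in normoxia (SD, n = 3 each), and the log2 change of 0.41 ± 0.16 only just passed (SE; edgeR adjusted p = 0.0490). The call was lost in 10 of 15 alternatives, with DESeq2 (adjusted p = 0.126) and limma-voom (adjusted p = 0.0531) among them. Without hypoxia replicate 2 the change was 0.57, and without hypoxia replicate 1 it was 0.30. The AIFM2 to GPX4 count ratio was 0.760, 1.13 and 0.987 in hypoxia and 0.352, 0.377 and 0.311 in normoxia. The lowest hypoxia ratio, 0.760, stood against a highest normoxia ratio of 0.377. The means were 0.958 ± 0.185 in hypoxia and 0.347 ± 0.0337 in normoxia, 2.73-fold apart on the log scale (SD, n = 3 each; two-sided exact permutation p = 0.1, the smallest possible).

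Divided by exon length in kilobases, levels can be set roughly side by side between genes. The length counts every annotated exon base of a gene, which can exceed the transcript that is expressed, so the order depends on it. In hypoxia the order of mean CPM per kilobase was GPX4 (37.2), NFE2L2 (22.9), NQO1 (14.1), AIFM2 (13.7), TXNRD1 (11.2), KEAP1 (9.25), HMOX1 (6.36), GCLC (3.998) and GCLM (3.41). In normoxia it was NQO1 (29.6), GPX4 (28.0), NFE2L2 (20.3), TXNRD1 (17.4), KEAP1 (11.3), GCLM (4.41), GCLC (3.94), AIFM2 (3.78) and HMOX1 (2.83). NQO1 therefore headed the order in normoxia together with GPX4, whose libraries overlapped with it, and AIFM2 ranked near the bottom. In hypoxia NQO1 (11.8 to 15.5) and AIFM2 (12.2 to 16.0) overlapped in their libraries, and so did TXNRD1 (9.48 to 13.6) with both of them and with KEAP1 (7.85 to 11.2). Per kilobase, GCLM was above GCLC in every normoxia library, although it had fewer counts there (count ratio 0.657 to 0.766). Their hypoxia ranges per kilobase overlapped, and GCLC and AIFM2 overlapped in normoxia. The spread between libraries, as a percentage of the mean, was larger in hypoxia than in normoxia for 8 of the 9 tested genes, and hypoxia replicate 3 was the highest hypoxia library for 5 of them.

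The genes with the likeness closest to the 2 extremes were found by Euclidean distance of centred log2 CPM over the 6 libraries, among 9330 genes with a mean of at least 10 CPM. Nearest to AIFM2 were TBC1D9B (distance 0.123), TICAM1 (0.146) and CDR2L (0.147). Nearest to NQO1 were TANGO6 (0.125), TIGD2 (0.138) and INTS14 (0.159). TICAM1 averaged 74.3 ± 9.86 CPM in hypoxia and 20.6 ± 0.637 CPM in normoxia, close to the AIFM2 values themselves.

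**Figure D3:**
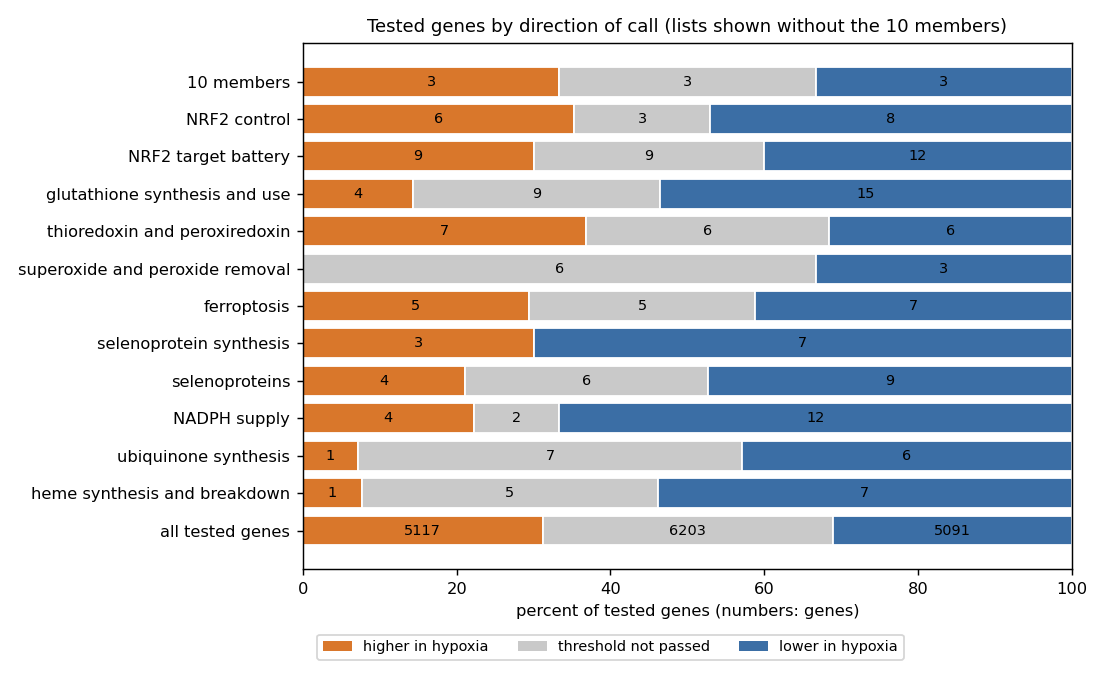
Percent of tested genes called higher, not past the threshold or called lower in hypoxia, for all 16411 tested genes, the 9 tested members and each wider list without the members, with numbers of genes in the bars. With TMM every list but the thioredoxin and peroxiredoxin genes has more lower than higher calls, the 9 members have 3 of each, and all tested genes are split nearly evenly; under library totals 33.1% of the calls over all genes are higher.

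The counts in the wider lists are to be read against all tested genes, of which 31.2% were called higher and 31.0% lower with TMM, and 20.9% and 42.1% under library totals; no test of a list's direction was made. Genes known to control NRF2 changed in both directions. Leaving out the members, 6 of 17 tested control genes rose and 8 fell; their median shift was -0.37 in log2. The genes of the small MAF proteins, partners that NRF2 needs on DNA, were all higher as RNA (MAFF, MAFK and MAFG). MAFF was at 139, 169 and 149 CPM in hypoxia and at 21.2, 16.6 and 22.1 CPM in normoxia, a shift of 2.93 ± 0.13 in log2 (SE; edgeR adjusted p = 4.49e-08). MAFK was at 59.7 ± 13.7 CPM in hypoxia and 15.6 ± 1.43 CPM in normoxia, and MAFG at 26.9 ± 4.23 CPM in hypoxia and 16.2 ± 0.397 CPM in normoxia (SD, n = 3 each). BACH1, the repressor that competes for the same elements and lets go when heme binds it, was also higher, at 201, 197 and 288 CPM in hypoxia and 118, 112 and 105 CPM in normoxia (log2 change 1.04 ± 0.14, SE; edgeR adjusted p = 0.00012). Its relative BACH2 was lower, at 1.46 ± 0.404 CPM in hypoxia and 3.66 ± 0.405 CPM in normoxia. SYVN1, an endoplasmic reticulum ubiquitin ligase that can also degrade NRF2, was 1.96-fold higher. CUL3, the scaffold of the KEAP1 ligase, was 1.53-fold lower, the mitochondrial KEAP1 partner PGAM5 2.28-fold lower and SQSTM1 (p62), which can draw KEAP1 into autophagy, 1.39-fold lower.

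**Figure D4:**
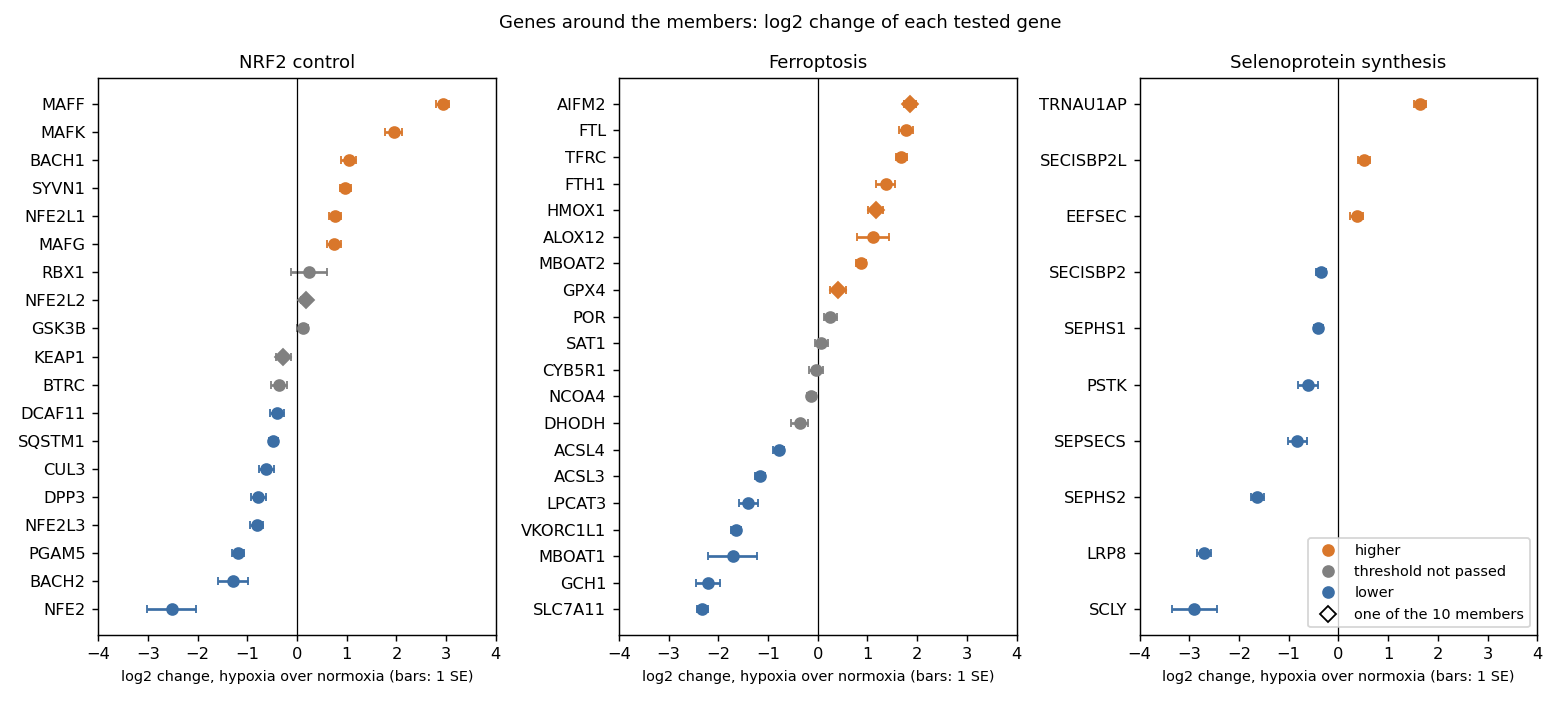
Log2 change, hypoxia over normoxia, with bars of 1 SE for tested genes of 3 lists (NRF2 control, ferroptosis, selenoprotein synthesis), coloured by call, with the members drawn as diamonds. MAFF, at 2.93, heads the NRF2 control genes, and AIFM2, at 1.86, and SLC7A11, at -2.32, stand at the 2 ends of the ferroptosis genes.

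The wider set of textbook NRF2 targets was mixed. Of 30 tested targets outside the 10, 9 rose and 12 fell (median log2 change -0.18); under library totals 5 rose and 16 fell. The cystine importer SLC7A11, which supplies cysteine for glutathione, fell 5.00-fold: it was at 18.2, 19.9 and 19.0 CPM in hypoxia and at 89.9, 105 and 91.1 CPM in normoxia (edgeR adjusted p = 6.17e-08). PRDX1, a cytosolic peroxiredoxin, was at 55.3 ± 8.49 CPM in hypoxia and 124 ± 9.82 CPM in normoxia. BLVRA, the main biliverdin reductase, was at 8.25 ± 1.14 CPM in hypoxia and 19.9 ± 1.52 CPM in normoxia (SD, n = 3 each). OSGIN1, an oxidative stress induced growth inhibitor, was at 28.6, 31.6 and 21.4 CPM in hypoxia and at 3.05, 2.32 and 3.67 CPM in normoxia, 8.95-fold higher (edgeR adjusted p = 6.31e-07). The ferritin light chain FTL was 3.42-fold higher.

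Of 28 tested genes of glutathione synthesis and use besides the members, 4 rose and 15 fell; the median shift was -0.47 in log2. In all 67.9% were called, near the 62.2% of all tested genes, and the direction of the list was not tested. CHAC2, which breaks glutathione down, was at 2.71 ± 1.10 CPM in hypoxia and 9.16 ± 0.363 CPM in normoxia, and OPLAH, which returns 5-oxoproline to glutamate, at 3.67 ± 0.737 CPM in hypoxia and 8.76 ± 0.650 CPM in normoxia (SD, n = 3 each). In the other direction, the glutaredoxin GLRX was at 221, 186 and 136 CPM in hypoxia and at 52.7, 56.2 and 59.9 CPM in normoxia, a shift of 1.68 ± 0.16 in log2 (SE; edgeR adjusted p = 1.07e-05). GGT7, of the gamma-glutamyltransferase family, was 1.84-fold higher.

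The thioredoxin and peroxiredoxin genes were divided, with 7 of 19 higher and 6 lower; under library totals the split turned to 5 higher and 9 lower. The mitochondrial peroxiredoxin PRDX3 was at 49.1, 44.0 and 48.6 CPM in hypoxia and at 137, 139 and 139 CPM in normoxia, a shift of -1.55 ± 0.09 in log2 (SE; edgeR adjusted p = 2.83e-07). TXNRD3, a further thioredoxin reductase, was 3.93-fold lower. The sestrin genes SESN1 (2.25-fold) and SESN2 (2.09-fold), which encode stress proteins that bear on nutrient signalling, were higher. Among 9 tested genes that remove superoxide and peroxide, 3 were lower: PON2, GPX8 and the mitochondrial superoxide dismutase SOD2. By edgeR 0 were called higher, and 0 by DESeq2; 2 were higher at an unadjusted p under 0.05, and 1 was called when hypoxia replicate 1 or 2 was left out. SOD2 was at 53.7, 54.2 and 60.1 CPM in hypoxia and at 85.3, 103 and 89.6 CPM in normoxia.

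Both selenium and NADPH bear on these enzymes, since GPX4 and TXNRD1 are selenoproteins and the reductases draw on NADPH. All 10 selenoprotein synthesis genes were called, 3 higher and 7 lower; under library totals 1 was higher and 7 lower, and against 1.5-fold 1 was higher and 3 lower. With DESeq2 2 were higher and 7 lower, and without normoxia replicate 3 there were 2 higher and 6 lower. SEPHS2, which makes the selenium donor, was at 12.9 ± 1.86 CPM in hypoxia and 39.9 ± 1.59 CPM in normoxia (SD, n = 3 each; log2 change -1.63 ± 0.13, SE; edgeR adjusted p = 2.47e-06). LRP8, a receptor for the selenium carrier selenoprotein P, was at 4.91 ± 0.395 CPM in hypoxia and 31.7 ± 0.712 CPM in normoxia (SD, n = 3 each), whereas TRNAU1AP, which binds the selenocysteine tRNA, was 3.12-fold higher. Of 19 tested selenoprotein genes outside the 10, 4 rose and 9 fell. Among 18 tested NADPH supply genes 4 rose and 12 fell; the median shift was -0.65 in log2. Under library totals 1 was higher and 13 lower, and against 1.5-fold 0 were higher and 8 lower. RPIA, of the pentose phosphate pathway, was 4.49-fold lower and the NAD kinase NADK 2.59-fold lower; PGLS was 1.78-fold higher.

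Ferroptosis genes outside the 10 were mixed, with 5 of 17 higher and 7 lower; under library totals 4 were higher and 10 lower. The transferrin receptor TFRC, which brings in iron, was at 369, 383 and 472 CPM in hypoxia and at 131, 126 and 125 CPM in normoxia, 3.20-fold higher (edgeR adjusted p = 5.13e-07). The ferritin heavy chain FTH1 was 2.58-fold higher. GCH1, which makes the antioxidant cofactor tetrahydrobiopterin, was at 1.68 ± 0.186 CPM in hypoxia and 7.84 ± 1.15 CPM in normoxia (SD, n = 3 each).

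AIFM2 acts on ubiquinone. Of 14 tested genes that make or handle ubiquinone, 1 rose and 6 fell; under library totals 0 were higher and 8 lower. COQ3, a methyltransferase of the pathway, was at 1.16, 1.12 and 1.14 CPM in hypoxia and at 10.3, 10.1 and 11.9 CPM in normoxia, a shift of -3.23 ± 0.22 in log2 (SE; edgeR adjusted p = 7.66e-07). COQ7 was 2.69-fold lower and PDSS1, which makes the side chain, 2.66-fold lower. The single rise, COQ4 at 1.40-fold, was lost under library totals, with no filter and without hypoxia replicate 1, normoxia replicate 1 or normoxia replicate 2.

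Of 13 tested genes of heme synthesis and breakdown besides HMOX1, 1 rose and 7 fell. FECH, which inserts the iron, was at 5.78, 5.39 and 5.22 CPM in hypoxia and at 32.6, 28.9 and 31.5 CPM in normoxia, a shift of -2.51 ± 0.14 in log2 (SE; edgeR adjusted p = 1.77e-07). The single rise was BLVRB, a biliverdin and flavin reductase, 2.76-fold. HMOX2, the constitutive heme oxygenase, was at 45.0 ± 7.45 CPM in hypoxia and 43.2 ± 1.66 CPM in normoxia and did not pass the threshold (edgeR adjusted p = 0.695).

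**Figure D5:**
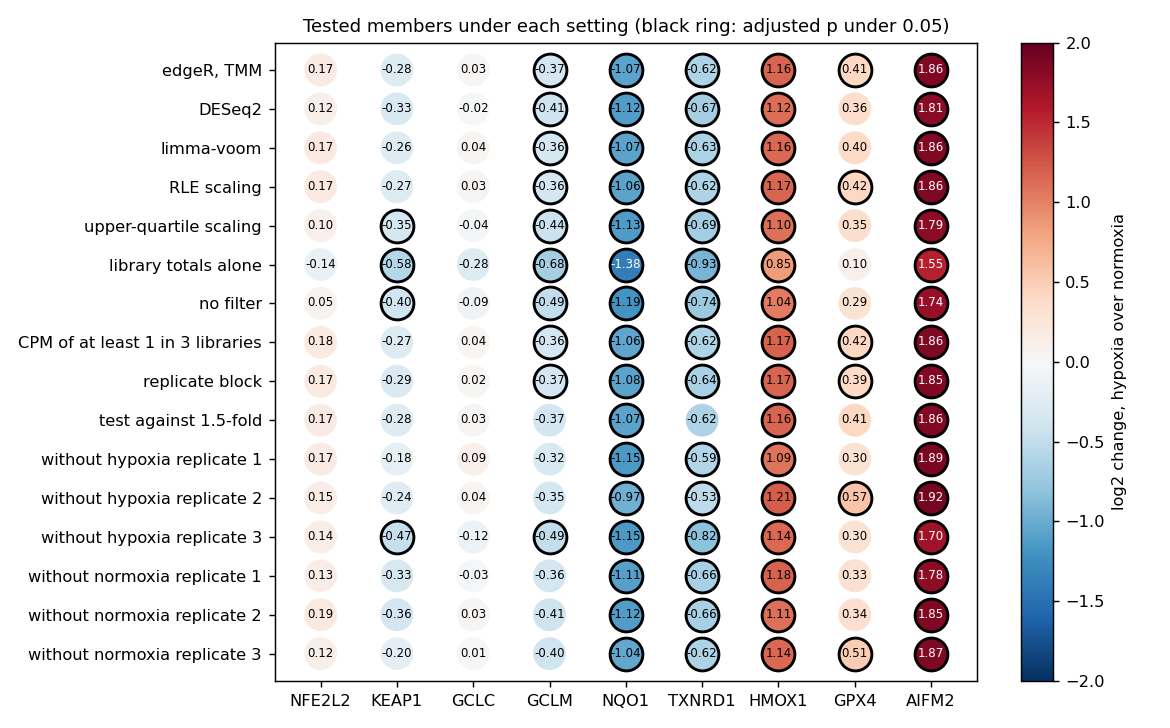
Log2 change, hypoxia over normoxia, of the 9 tested members in the edgeR fit with TMM and in the 15 alternatives, 1 row per setting, with a black ring around called changes. AIFM2, HMOX1 and NQO1 keep their call and sign in every row, while GPX4 loses its call in 10 alternatives and GCLC changes sign in 6.

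Across the alternatives AIFM2 ranged from 1.55 to 1.92, HMOX1 from 0.85 to 1.21 and NQO1 from -1.38 to -0.97 on the log2 scale, called in each of 15. The direction of all changes is relative to the TMM scaling, since scaling by library totals alone moved the median of all tested genes by -0.31 and left 33.1% of called genes as higher in hypoxia, against 50.1% with TMM.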

How the data were processed

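RNA-seq counts were analysed for 6 libraries of IOMM-Lee cells, 3 from hypoxia and 3 from normoxia, grouped by the sample titles; the labels call them biological replicates without naming separate cultures, so p-values measure the spread between these libraries. The authors deposited raw counts, 1 row per Ensembl gene; the build GRCh38.p13 and the tools DESeq2 1.37.5, featureCounts 2.0.1, HISAT2 2.1.0 and fastp 0.20.1 are from the submitters' processing notes. Per the labels' protocols, RNA was column-purified and libraries were made with a NEBNext Ultra II RNA kit. None of the sources used here gives the strand setting, annotation release or RNA selection, so reads of a gene and an antisense or overlapping partner may not be told apart. A second, normalized table was not used because its cells run together. Of 61860 lines, 1 names no gene (0.00243% of counts) and was left out.

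Counts were fitted with edgeR 4.0.16 in R 4.3.3 (filterByExpr with minimum count 10 and total 15, TMM, robust quasi-likelihood F test, Benjamini-Hochberg adjustment over 16411 genes, threshold 0.05). The SE is the log2 change divided by the square root of F. CPM use TMM-scaled totals, and the prior count of log2 CPM was 2. Ratios of 2 genes took 0.5 added counts and an exact permutation test. The biological coefficient of variation was 15.3%, and no replicate pair agreed within sampling noise (chi-square per gene 5.88 to 38.1). Alternatives were DESeq2 1.42.0, limma-voom 3.58.1, other scalings and filters, a replicate block, a test against 1.5-fold and leaving out each library. The code was tested on simulated data in which few genes changed. With most tested genes called here, that test cannot check the TMM centring. Coordinates and exon lengths are from GENCODE 29 (GRCh38), and promoters from RefSeq (GRCh38.p14).

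The members and lists were chosen with earlier results of these data known. Besides all members, the rule named from each list up to 3 called genes with the largest change in the direction with more calls and up to 2 in the other, with a mean of at least 1 CPM. That direction was set with the members counted. For ferroptosis it was therefore higher (8 against 7), although more genes outside the members fell than rose. CA9, VEGFA and SLC2A1 were taken from the hypoxia check genes. BACH1, MAFG, SYVN1, CUL3, SQSTM1 and HMOX2 fall outside that rule and were chosen after their values were seen, for their roles beside the members.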

Additional observations from a re-analysis of the deposited data

How the results depend on the processing

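AIFM2, HMOX1 and NQO1 kept direction and call in all 15 alternatives. Tested against 1.5-fold, 2825 genes were called higher and 3045 lower, with 2 of the 10 genes higher and 1 lower. Leaving out 1 library at a time gave 4487 to 5283 genes higher and 4578 to 5630 lower, and 2 to 3 of the 10 genes higher and 2 to 4 lower. NFE2L2 turned to -0.14 under library totals. GCLC turned to -0.021 with DESeq2, -0.041 with upper-quartile scaling, -0.28 with library totals, -0.091 with no filter, -0.115 without hypoxia replicate 3 and -0.029 without normoxia replicate 1 (highest with 1 library left out, 0.094); the cause was not tested. With 1 library left out, the log2 ratio changes ranged from 0.35 to 0.61 (NFE2L2 to KEAP1), -0.44 to -0.33 (GCLM to GCLC) and 1.33 to 1.61 (AIFM2 to GPX4). Same-numbered libraries did not deviate together (correlations -0.106, 0.0864 and -0.0378). With 3 libraries per group these correlations cannot show whether cultures were handled as pairs, and the labels do not say. With a replicate block 4863 genes were higher and 4906 lower, with 3 and 3 of the 10 genes. The ratio changes with that block were 0.47, -0.39 and 1.45. Of 48 other named genes, 43 kept their call in all 15 alternatives and 45 in the 14 besides the 1.5-fold test. That count takes in the hypoxia check genes CA9, VEGFA and SLC2A1. It leaves out BACH1, MAFG, SYVN1, CUL3, SQSTM1 and HMOX2, and the genes nearest to AIFM2 and NQO1. The genes from the lists were picked for large called changes in these same data, so most were likely to keep their call. The count is no separate support for them. SRXN1 had 21 counts over the 6 libraries and could not be tested.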
